A study of Sus scrofa with 4 samples.

Results

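LOC106509199 and LOC100513133 are 2 annotated long non-coding RNAs (lncRNAs) of the pig. They were taken by name from the 4 libraries of a time course of subcutaneous preadipocyte differentiation. They were chosen by their measured FPKM and their position: LOC106509199 because it holds several percent of all counted reads, and LOC100513133 because it lies near the place expected for NEAT1. The levels below are therefore a description, with no test. The 2 genes are among 3084 annotated lncRNAs, 5615 lncRNAs of any kind (annotated, and assembled ones named MSTRG) and 22944 features with an expression value. Preadipocytes were isolated from the subcutaneous fat of male, 5-day-old Chinese Erhualian piglets and collected on days 0, 2, 4 and 8 of differentiation (D0, D2, D4 and D8). D0 was the confluent culture, D2 followed 2 days of dexamethasone, 3-isobutyl-1-methylxanthine and insulin, D4 followed 2 further days of insulin alone, and D8 followed growth medium without added hormones. RNA of 3 piglets was pooled in equal amounts into 1 library for each stage, and ribosomal RNA was removed before sequencing. Stage, medium and library cannot be told apart, these libraries do not show the spread between animals, and none of the differences below has a replicate check within them.

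The regions around both genes hold well-studied non-coding RNAs in other mammals. NEAT1 is the RNA scaffold of paraspeckles, nuclear bodies that hold back certain RNAs and proteins. It has a short and a long isoform that share their 5′ end, and the long one is needed to build the body. MALAT1, its neighbour on the chromosome, is an abundant RNA of nuclear speckles, where splicing factors are stored. CCDC107, a protein-coding gene, has beside it on the opposite strand RMRP, the RNA component of RNase MRP. RNase MRP is a ribonucleoprotein that cuts precursor ribosomal RNA, and its RNA is made by RNA polymerase III. The pig genes are known here by their locus numbers and positions only, and their identity with RMRP or NEAT1 was not tested.

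LOC106509199 lies on the minus strand of chromosome 1 at chr1:236380010-236382894 (Sscrofa11.1). Its 4 expression values fit a counted length of 407 bases within a span of 2885 bases, so that most of the span was intron. LOC100513133 lies on the minus strand of chromosome 2 at chr2:6803590-6811708, and its counted length was 7928 bases within a span of 8119 bases. For LOC100513133 the study designed a primer pair for quantitative PCR, with which it also assayed this lncRNA at the 4 stages in replicate RNA samples. Whether these were the RNAs pooled for sequencing is not stated. The paper reports similar trends in quantitative PCR and sequencing for the genes it assayed. Those measurements are not used here. The primer pair is given because it is the sequence by which this transcript can be assayed, and each primer has 20 bases. All bases are in lower case, and no base is singled out. 
LOC100513133 primer 1: ctcgtgagccctcatgtgtt
LOC100513133 primer 2: aactgtgctggggatcaagg

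The cells were checked against marker genes first. The summed level of 16 adipocyte markers was 174, 774, 2924 and 2987 FPKM at D0, D2, D4 and D8. FPKM is the number of fragments counted, divided by the transcript's length and by the total of the library. The summed level of 9 preadipocyte and fibroblast markers was between 2770 and 3904 FPKM, with opposite changes of its most abundant genes. VIM, the intermediate filament vimentin, had 2952, 885, 766 and 1898 FPKM at D0, D2, D4 and D8, and COL3A1, a fibrillar collagen, had 491, 1286, 2058 and 1624 FPKM. The 6 blood cell markers summed to 3.59, 7.40, 9.08 and 4.38 FPKM from D0 to D8, higher at D2 and D4, as LOC100513133 was. CD14, a monocyte and macrophage receptor, held most of that sum at 3.14, 5.64, 7.54 and 2.78 FPKM, CD163 had 0.27, 1.42, 1.01 and 1.38 FPKM, and PTPRC, which marks leukocytes, had at most 0.0712 FPKM. The 5 endothelial markers summed to at most 2.65 FPKM. The 5 epithelial markers summed to 7.92, 12.2, 19.8 and 30.0 FPKM from D0 to D8, of which KRT8 was the larger part. The part of any of these cell types in the levels of the lncRNAs was not tested. The libraries held 54128151 to 75387428 counted reads, where a counted read stands for a fragment as in FPKM.

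LOC106509199 was the most abundant lncRNA of these cells at every stage. Its level was 122569 FPKM in the D0 library, 182459 FPKM in that of D2, 168876 FPKM in that of D4 and 168911 FPKM in that of D8. D0 was the lowest library and D2 the highest, and D4 and D8 were nearly equal. In reads, these levels were 3760753, 4083437, 5110882 and 3721132. Here, fewer expressing cells and less RNA per cell cannot be told apart, since each library is a bulk pool. LOC106509199 took 4.99% of all counted reads at D0 (95% Wilson interval 4.98 to 4.99), 7.43% at D2, 6.87% at D4 and 6.87% at D8. All intervals given here cover counting error only.

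**Figure D1:**
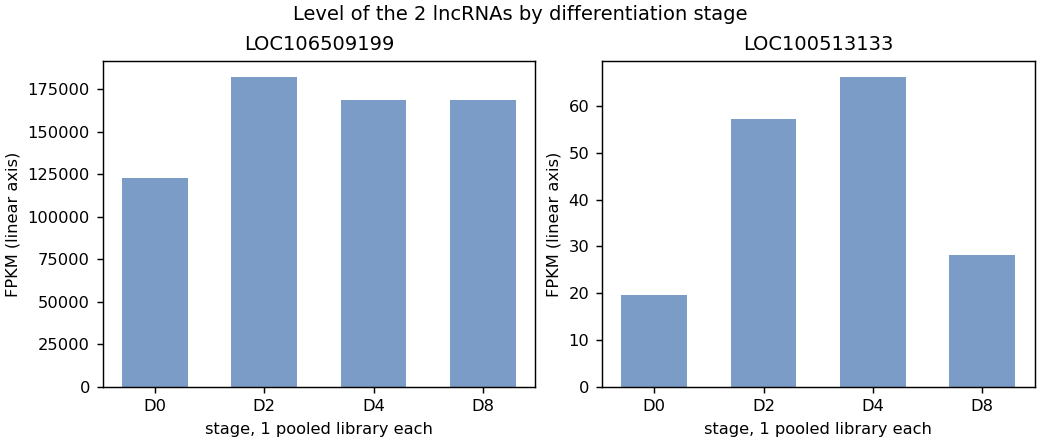
Level of LOC106509199 (left) and LOC100513133 (right) in FPKM on linear axes from 0, with 1 bar for the single pooled library of each stage and so no error bar. LOC106509199 was lowest at D0 and highest at D2, while LOC100513133 was at 19.6 at D0, 66.3 at D4 and 28.1 at D8.

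LOC106509199 was second in FPKM among all features in each of the 4 libraries. Above it stood LOC102723301, annotated as the RNA of the signal recognition particle (SRP), which guides new secretory proteins to the endoplasmic reticulum. SRP RNA took 12.4%, 17.1%, 12.5% and 16.5% of counted reads at D0, D2, D4 and D8. SRP RNA was high at D2 and D8 and low at D0 and D4, whereas LOC106509199 was low at D0 alone. With the SRP RNA reads left out of the total, LOC106509199 took 5.70%, 8.96%, 7.86% and 8.23% of the remaining reads, which keeps D0 lowest and D2 highest.

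Among lncRNAs, LOC106509199 held 68.6%, 69.3%, 67.2% and 76.1% of all lncRNA reads at D0, D2, D4 and D8. Among annotated lncRNAs alone, it held 84.4%, 87.3%, 87.2% and 87.6% of the reads. LOC100621455, the next annotated lncRNA by mean level, had 1198, 1867, 1080 and 1490 FPKM at D0, D2, D4 and D8. All lncRNAs together took 7.27%, 10.7%, 10.2% and 9.03% of counted reads at D0, D2, D4 and D8.

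**Figure D2:**
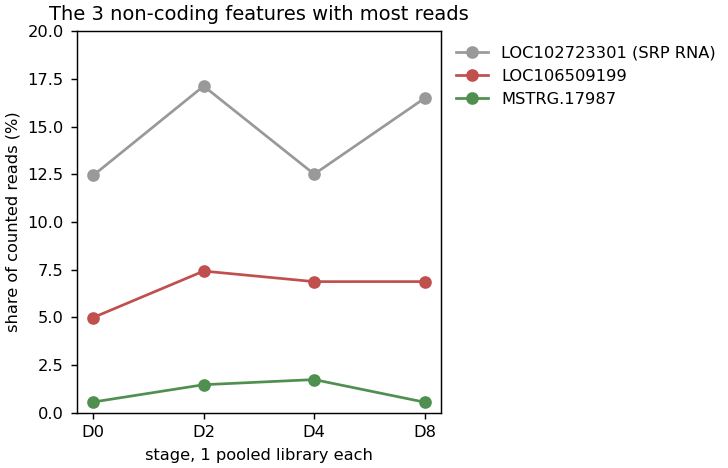
Share of counted reads (%, linear axis from 0) at each stage, with 1 pooled library per point, for the 3 non-coding features with the most reads. LOC106509199 (red) lay between 4.99% and 7.43%, below SRP RNA (grey, 12.4% to 17.1%) and above MSTRG.17987 (green, at most 1.74%).

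The log2 ratio of LOC106509199 was 0.57 for D2 vs D0, with a 95% counting interval of 0.57 to 0.58. It was −0.11 for D4 vs D2, 0.46 for D4 vs D0 and 0.46 for D8 vs D0. For D8 vs D4 it was 0.0003 (−0.0016 to 0.0022), so that no difference was detectable even with this number of reads. The sign of that last ratio changed with the scaling, from 0.21 with the median of ratios over mRNAs to −0.05 with the sum of mRNA FPKM. With the median of ratios the D8 level also stood slightly above that of D2, with log2 ratios to D0 of 0.62 and 0.61. None of the 5 ratios reached 2-fold.

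LOC100513133 was present at a far lower level and moved more. Its level was 19.6, 57.2, 66.3 and 28.1 FPKM at D0, D2, D4 and D8. The libraries of D2 and D4 were high, and those of D0 and D8 low. The reads behind these levels were 11707, 24928, 39104 and 12046. Its rank by FPKM among annotated lncRNAs was 35, 17, 13 and 26 at D0, D2, D4 and D8, and its rank among all features was 2708, 979, 867 and 1840. At D4, its highest stage, it took 0.0526% of counted reads. Per length, LOC106509199 stood 6257 times above LOC100513133 at D0, 3191 times at D2, 2546 times at D4 and 6017 times at D8.

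The log2 ratio of LOC100513133 was 1.55 (95% counting interval 1.51 to 1.58) for D2 vs D0 and 1.76 (1.73 to 1.79) for D4 vs D0, which are 2.92-fold and 3.39-fold higher levels. It was −1.24 (−1.27 to −1.21) for D8 vs D4, the reverse step. For D8 vs D0 it was 0.52 (0.48 to 0.56), a 1.43-fold higher level. The step from D2 to D4 was small, at 0.21 (0.19 to 0.24), and it was −0.05 when levels were scaled to the reference genes RPLP0, PPIA and HPRT1. Which of D2 and D4 was the higher therefore turned on the scaling, whereas both were above D0 and D8 under each scaling tried.

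These ratios can be read against all 9929 features with at least 1 FPKM in at least 3 libraries, here called reliably expressed. Of these, 17.8% were at least 2-fold apart in either direction in D2 vs D0, 6.02% in D4 vs D2, 15.2% in D8 vs D4, 20.2% in D4 vs D0 and 8.69% in D8 vs D0. The same shares over the 208 reliably expressed annotated lncRNAs were 21.2%, 6.73%, 13%, 23.6% and 10.6%. LOC100513133 was past 2-fold in D2 vs D0, D8 vs D4 and D4 vs D0, and LOC106509199 in no comparison. The median log2 ratio over all these features was −0.03 for D2 vs D0, 0.05 for D4 vs D0 and −0.21 for D8 vs D4. The highest stage of LOC100513133 was 3.39 times its lowest, and 88.3% of the 9929 features had a smaller range. For LOC106509199 the highest stage was 1.49 times the lowest, and 35.9% of features had a smaller range. The median range was 1.67 times.

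The position of LOC100513133 was then read from its neighbours. Along the chromosome the order was MSTRG.17987, MSTRG.18003, LOC100513133, FRMD8 and SLC25A45. LOC100513133 thus lay on the far side of FRMD8 from SLC25A45, and not between those genes as in the description by which it was picked. FRMD8, which encodes a FERM domain protein, was the nearest gene upstream, at a gap of 11255 bases. SLC25A45, a mitochondrial carrier, was 39392 bases away and had at most 0.048 FPKM. Downstream, the assembled transcript MSTRG.18003 began 1185 bases beyond the 3′ end of LOC100513133 on the same strand, and both together covered 22996 bases. MSTRG.17987, labelled antisense, lay further along on the same strand at a gap of 44965 bases. LOC102163816, an annotated lncRNA, lay on the plus strand opposite MSTRG.17987 and MSTRG.18003.

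**Figure D3:**
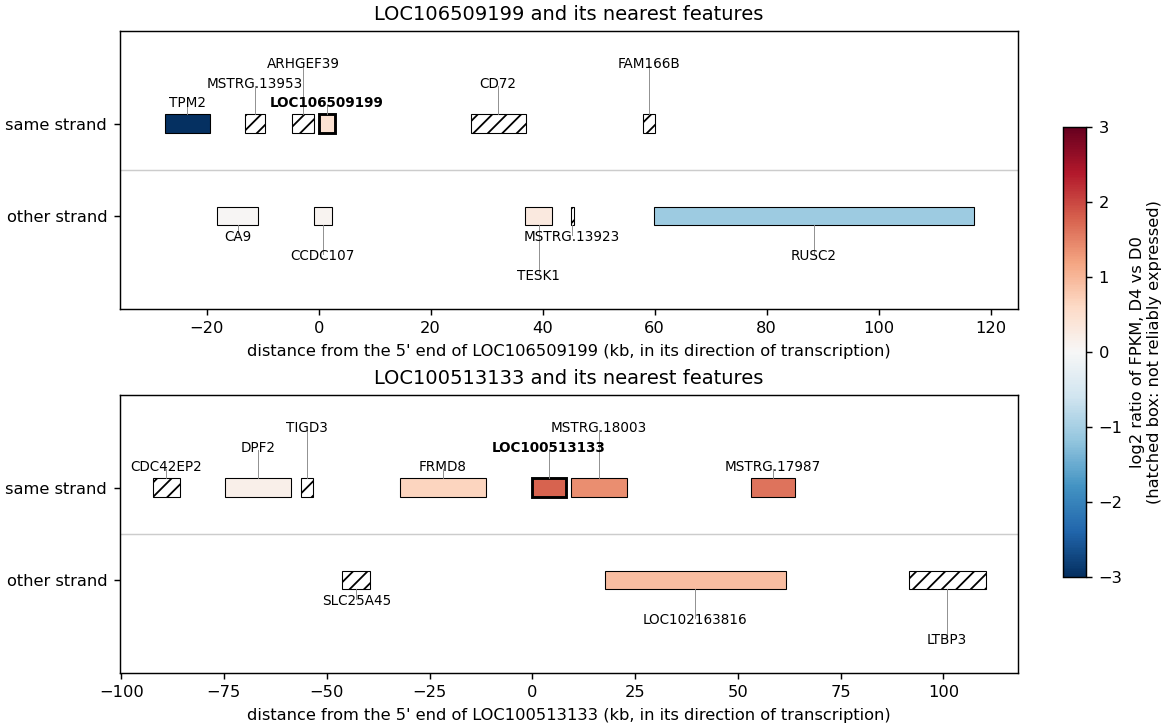
Map of each lncRNA (thick outline) with its nearest features, drawn to scale as distance in kb from its 5′ end along its direction of transcription, with features of the same strand above and of the other strand below. Colour gives the log2 ratio of FPKM for D4 vs D0, and hatched boxes were not reliably expressed. The non-coding features downstream of LOC100513133 were red like it, with log2 ratios of 0.92 to 1.63, while TPM2 beside LOC106509199 was blue at −3.11.

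MSTRG.18003, the next transcript downstream of LOC100513133, had 3.86, 9.85, 10.2 and 5.49 FPKM at D0, D2, D4 and D8. As with LOC100513133, D2 and D4 were high and D0 and D8 low. The level of LOC100513133 was 5.07 times that of MSTRG.18003 at D0 (95% counting interval 4.89 to 5.26), 5.80 times at D2 (5.65 to 5.96), 6.52 times at D4 (6.38 to 6.66) and 5.11 times at D8 (4.93 to 5.30). The ratio of the 2 transcripts was thus nearly equal at D0 and D8 and higher at D2 and D4, beyond counting error.

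MSTRG.17987, at the place expected for MALAT1, was far more abundant than LOC100513133. It had 593, 1553, 1838 and 582 FPKM at D0, D2, D4 and D8. D2 and D4 were again the high libraries. It stood 30.3, 27.2, 27.7 and 20.7 times above LOC100513133 per length at D0, D2, D4 and D8, so that D8 had the smallest gap. It held between 61.6% and 85.1% of the reads of all antisense-labelled lncRNAs. Its log2 ratio was 1.63 for D4 vs D0 and −0.03 for D8 vs D0, where LOC100513133 had 1.76 and 0.52.

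LOC102163816, on the other strand, had 1.57, 3.19, 2.98 and 1.82 FPKM. For each of its reads there were 352, 453, 573 and 298 reads of MSTRG.17987 and MSTRG.18003 together, which lie opposite it on the minus strand. The library kit marks strand, but whether the counting used it is not given in the sources used here. Reads of these overlapping transcripts may therefore not be fully separated.

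Of the nearest protein-coding genes of LOC100513133 with values given here, FRMD8 and DPF2 were reliably expressed, and their ratios were smaller than its own. FRMD8 had 5.57, 8.07, 8.84 and 4.71 FPKM at D0, D2, D4 and D8, highest at D4, with a log2 ratio of 0.67 for D4 vs D0 and −0.91 for D8 vs D4. DPF2, a chromatin remodelling subunit, had 11.15, 12.8, 12.6 and 9.13 FPKM and was lowest at D8. LTBP3, TIGD3 and CDC42EP2 were not reliably expressed, and at these low levels CDC42EP2 had a log2 ratio of −2.78 for D2 vs D0 and TIGD3 2.94 for D8 vs D4. Over a wider list of genes that surround NEAT1 and MALAT1 in mammals, 8 reliably expressed protein-coding genes had a median log2 ratio of −0.55 for D2 vs D0 and −0.10 for D4 vs D0. In that list, 3 of 8 genes were past 2-fold lower in D2 vs D0 and 0 were past 2-fold higher, where 10.7% of all reliably expressed features were past 2-fold lower and 7.06% higher. They were EHBP1L1 at −2.65, a larger difference than any of LOC100513133, RELA, a subunit of NF-κB, at −1.11, and POLA2, a subunit of DNA polymerase alpha, at −1.08.

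**Figure D4:**
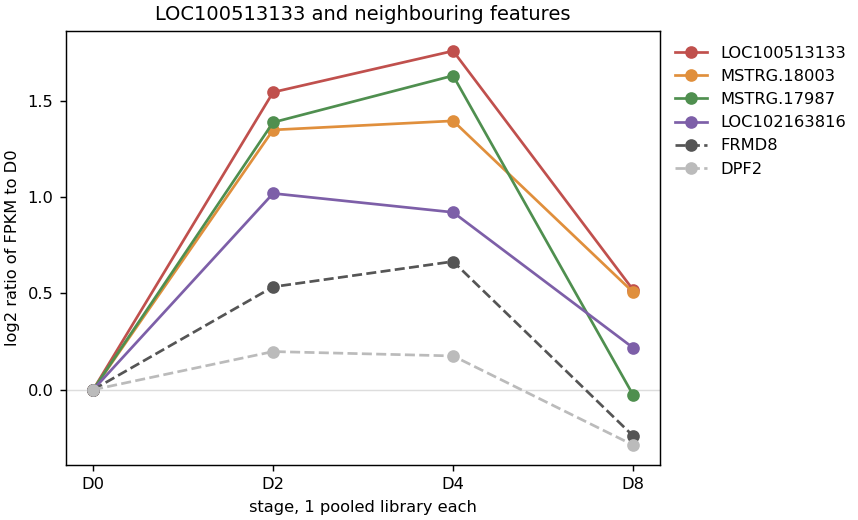
Log2 ratio of FPKM to D0 (y axis) at D0, D2, D4 and D8, with 1 pooled library per point, for LOC100513133 and neighbouring features. The 4 non-coding features (solid lines) reached 0.92 to 1.76 at D4, above FRMD8 at 0.67 and DPF2 at 0.18 (dashed lines).

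Likeness of the stage pattern was measured as the root mean square difference of log2 levels over the 4 libraries, after each feature's own mean was subtracted. Smaller values are more alike. To LOC100513133, MSTRG.18003 stood at 0.149, rank 46 of 9928 other features, and MSTRG.17987 at 0.204, rank 114. The median of all features was 0.732. LOC102163816 ranked 387, FRMD8 1096 and DPF2 3094. Nearest of all were POLM, a DNA polymerase of end joining, at 0.047, FAM117B at 0.062 and RBL2, a retinoblastoma-family repressor of the cell cycle, at 0.068. They were followed by GAS6, a secreted ligand of TAM receptors, at 0.069, and RNF125, a ubiquitin ligase, at 0.073. RBL2 had 1.74, 4.97, 6.35 and 2.73 FPKM and GAS6 had 10.8, 28.9, 38.2 and 15.5 FPKM. Both were lowest at D0 and highest at D4. Likeness over 4 libraries among 9928 candidates is given as a description only.

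No circular RNA (circRNA) was listed with an end inside LOC106509199 or LOC100513133, where only circRNAs of at least 2 junction reads were kept. In MSTRG.18003, the circRNA ssc_circ_0001265 had 42, 24, 39 and 11 junction reads at D0, D2, D4 and D8. Its scaled levels were 269.5, 174.4, 231.5 and 92.4 SRPBM, which is junction reads scaled by the reads mapped. D0 was the highest and D8 the lowest, unlike the linear transcript. Within the span of MSTRG.17987 there were 4 circRNAs, each listed at 0 at D0 and D8. Where listed above 0 they had only 3 to 11 junction reads, so their absence from a library rests on small counts. Of the 4 circRNAs, 3 were on the strand of MSTRG.17987 and 1, ssc_circ_0001263, was on the plus strand. All 4 also lay within LOC102163816, which is on the plus strand, as did ssc_circ_0001265.

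The neighbourhood of LOC106509199 was different. CCDC107, on the plus strand, overlapped 2323 of its 2885 bases, and the last 562 bases at the 3′ end of LOC106509199 lay beyond the start of CCDC107. CCDC107 had 15.5, 13.7, 16.3 and 17.5 FPKM at D0, D2, D4 and D8. Its log2 ratios to D0 were −0.17 at D2, 0.08 at D4 and 0.18 at D8, against 0.57, 0.46 and 0.46 for LOC106509199. There was 1 read of CCDC107 for 3772, 6321, 4919 and 4600 reads of LOC106509199, so the overlapping pair was counted very unequally.

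The other genes near LOC106509199 did not share its pattern. TPM2, a tropomyosin of the actin cytoskeleton, had 413, 90.2, 48.0 and 350.0 FPKM at D0, D2, D4 and D8. It was lowest where LOC106509199 was high, apart from D8, with a log2 ratio of −3.11 for D4 vs D0. RUSC2 had 6.52, 2.43, 3.06 and 4.69 FPKM. ARHGEF39, a guanine nucleotide exchange factor 789 bases upstream on the same strand, had 1.68, 0.181, 0.606 and 1.88 FPKM and was not reliably expressed. CA9, a carbonic anhydrase, and TESK1, a kinase, were between 1.02 and 1.79 FPKM. By likeness to LOC106509199, CCDC107 ranked 2356 of 9928, TESK1 3996, RUSC2 8743 and TPM2 9771.

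The features with the stage pattern nearest to LOC106509199 were ROMO1, a mitochondrial inner membrane protein, at 0.017 and SLC25A20, the carnitine-acylcarnitine carrier, at 0.021. SP140 at 0.029, PEX2, a peroxisome biogenesis factor, at 0.034 and LOC110261477 at 0.036 came next. ROMO1 had 212, 317, 301 and 293 FPKM at D0, D2, D4 and D8, and SLC25A20 had 35.1, 51.8, 46.5 and 47.4 FPKM. Each was lowest at D0 and highest at D2. The median of all features was 0.372.

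The protein partners of RNase MRP, listed together with those of RNase P, gave values to set beside LOC106509199. RNase P trims precursor transfer RNA, and the 2 complexes share most of these proteins but not all. Of 11 listed proteins, 9 were reliably expressed, and 0 of 9 were past 2-fold in any of the 5 comparisons, against 31.8% of all reliably expressed features. Their median log2 ratio was 0.17 for D2 vs D0, 0.30 for D4 vs D0 and −0.37 for D8 vs D4. RPP25L had 14.3, 26.6, 24.7 and 20.6 FPKM at D0, D2, D4 and D8, with D0 lowest and D2 highest as for LOC106509199. RPP30 also had D0 lowest and D2 highest, at 6.20, 8.27, 7.18 and 6.25 FPKM, with D8 close to D0. POP7 had 17.3, 21.4, 30.4 and 20.6 FPKM and POP5 had 12.7, 17.3, 20.4 and 11.8 FPKM, both highest at D4. POP1, the scaffold protein, had 7.27, 5.31, 5.93 and 3.96 FPKM and was highest at D0. POP4 was also highest at D0, and RPP40, RPP21 and RPP38 were highest at D4. The members of this group therefore did not share 1 pattern.

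The machinery of RNA polymerase III was listed because this polymerase transcribes RMRP in mammals. The list was not narrowed to the factors that RMRP itself uses. This machinery had 29 reliably expressed members. Its median log2 ratio was 0.02 for D2 vs D0, 0.01 for D4 vs D0 and −0.18 for D8 vs D0, close to the medians of all features. In D2 vs D0, 0 of 29 were past 2-fold, against 17.8% of all reliably expressed features. In D8 vs D4, 3 of 29 were past 2-fold lower and 0 higher, against 10.4% and 4.75% of all reliably expressed features. Over all comparisons, 5 of 29 members passed 2-fold, against 31.8% of all reliably expressed features. The 5 were POLR3G, POLR3A, SNAPC3, SNAPC4 and GTF3C2. With the median of ratios as scaling, 1 member, SNAPC3, was past 2-fold.

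Paraspeckle proteins were set beside LOC100513133. Of 37 listed, 31 were reliably expressed. Their median log2 ratio was 0.02 for D2 vs D0, 0.33 for D4 vs D2, −0.38 for D8 vs D4 and 0.24 for D4 vs D0. The median of all reliably expressed features was 0.09 for D4 vs D2. In D4 vs D2, 26 of 31 were higher, where 61.4% of all features were. Past 2-fold were 0 of 31, where only 6.02% of all features were. In D8 vs D4, 26 of 31 were lower, where 64.1% of all features were. In the same comparison, 3 of 31 were past 2-fold lower and 1 was past 2-fold higher, shares near those of all features. In D2 vs D0, the step at which LOC100513133 was 2.92-fold higher, 16 were higher and 15 lower, where 48.1% of all features were higher. In that comparison 2 of 31 were past 2-fold lower, against 10.7% of all features.

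Among the core paraspeckle proteins, SFPQ had 12.9, 14.1, 20.6 and 11.2 FPKM at D0, D2, D4 and D8. PSPC1 had 1.58, 1.54, 1.92 and 1.35 FPKM. Both were highest at D4 and stood near their D0 level at D2, while LOC100513133 was already high at D2. TAF15 (12.2, 14.0, 18.3 and 8.88 FPKM), HNRNPH3 (4.18, 4.35, 6.01 and 2.09) and CPSF7 (3.01, 3.66, 5.39 and 2.56) were past 2-fold lower in D8 vs D4. With the median of ratios or the reference genes as scaling, TAF15 and CPSF7 were no longer past 2-fold, at −0.83 and −0.86 with the former, and HNRNPH3 was. KLF4, a transcription factor, and RBM3, a cold-inducible RNA-binding protein, went the other way. KLF4 had 5.40, 2.53, 2.42 and 6.31 FPKM and RBM3 had 925, 433, 474 and 791 FPKM, lower at D2 and D4 than at D0 and D8. In D2 vs D0 both had a log2 ratio of −1.09. Both stayed past 2-fold with the median of ratios (−1.06), but not with the mRNA sum (−0.98) or the reference genes (−0.99).

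The 28 nuclear speckle proteins, the partners of MALAT1, had a median log2 ratio of 0.03 for D2 vs D0, 0.31 for D4 vs D2 and −0.53 for D8 vs D4. In D8 vs D4, 26 of 28 were lower, where 64.1% of all features were. In the same comparison, 3 of 28 were past 2-fold lower, a share near the 10.4% of all features. SRSF4, a splicing factor, had 1.999, 3.66, 6.08 and 1.89 FPKM and was highest at D4. ACIN1 and SRRM2 were the other two past 2-fold. Of 10 proteins of the 7SK particle and P-TEFb, which hold and release paused RNA polymerase II, HEXIM1 alone passed 2-fold. That is 1 of 10 in any of the 5 comparisons, against 31.8% of all reliably expressed features. HEXIM1, a P-TEFb inhibitor, had 12.8, 20.2, 32.5 and 10.1 FPKM, highest at D4, with a log2 ratio of 1.34 for D4 vs D0 and −1.68 for D8 vs D4.

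**Figure D5:**
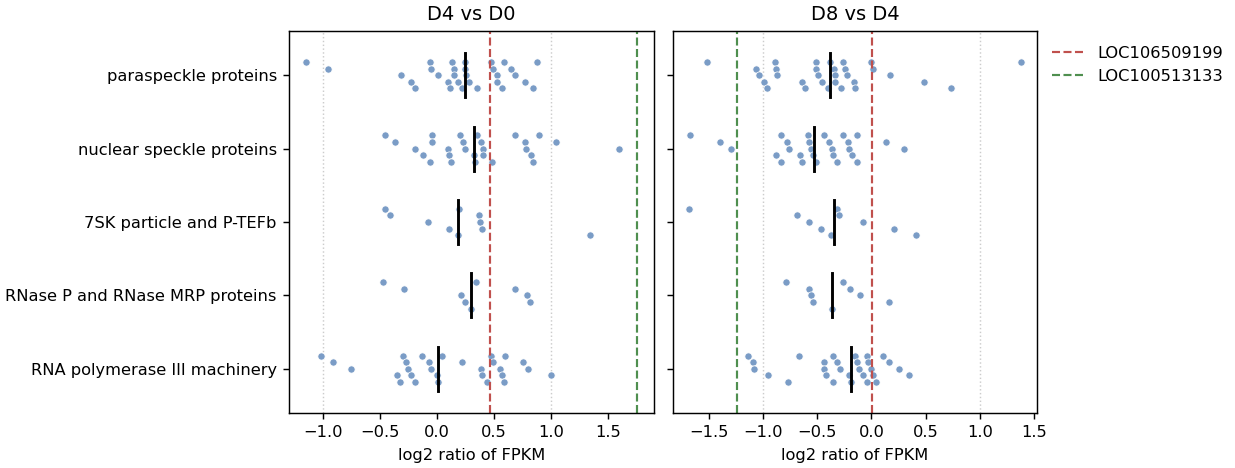
Log2 ratio of FPKM for D4 vs D0 (left) and D8 vs D4 (right), with 1 point per reliably expressed gene of each list, a black bar at the list median and dotted lines at 2-fold. The dashed lines mark LOC106509199 (red) and LOC100513133 (green, 1.76 and −1.24), and the D4 vs D0 ratio of LOC100513133 lay above every gene of the 5 lists.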

How the data were processed

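Total RNA of 4 pooled libraries was depleted of ribosomal RNA and made into strand-marking libraries. Per the labels and methods, the authors aligned reads to Sscrofa11.1 with HISAT2 2.0.5, assembled lncRNAs, and deposited FPKM for genes. The authors called circRNAs with BWA-MEM and CIRI and deposited SRPBM, junction reads scaled by mapped reads, in the same column as FPKM. The counter and its strand setting are not given in the sources used here.

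Reads were recovered from the deposited FPKM. Transfer RNA rows holding a single read gave the library totals of 75387428 (D0), 54987801 (D2), 74358922 (D4) and 54128151 (D8). The smallest whole length that turned the 4 values of a row into whole reads was taken, and one was found for 22944 of 22944 rows. The tolerance was 0.001 of a read plus a small allowance that grew with the number of reads. The reads summed to 98.9% to 99.1% of the totals. The recovery was tested on simulated data. The next longer length that gave whole reads for LOC106509199 would bring the sums to 103.9% to 106.5%. Counting error is the only error in the Wilson and Poisson intervals of 95%.

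Log2 ratios used a pseudocount of 0.01 on FPKM, in 5 comparisons that share libraries, each of 3 later stages with D0 and each of D4 and D8 with the stage before it. A 2-fold limit was used with no test, since there was 1 library per stage. Named genes were the 2 lncRNAs, the 5 nearest features on either side where reported, genes listed around NEAT1 and MALAT1 in mammals, the 5 features of most alike pattern, the most abundant non-coding features, the reference genes, up to 6 genes past 2-fold in each list and circRNAs of the region. SFPQ, PSPC1 and the reliably expressed RNase P and RNase MRP proteins were named after their values were seen. The genes and all lists were chosen with earlier results of these data known. Both lncRNAs matched the RefSeq annotation of Sscrofa11.1 by name and position, and transcript sequences were not used here. Some features are not reported here and were left out of the lists. Alternatives were other pseudocounts, 3 other scalings and other filters on low values. Python 3.11.15 with pandas 2.3.3, numpy 2.4.6, scipy 1.17.1 and matplotlib 3.10.9 was used.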

Additional observations from a re-analysis of the deposited data

How the results depend on the processing

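No result changed direction as a called 2-fold difference under any of the scalings, pseudocounts or filters tried. No paired analysis was possible because each stage has 1 library, and for the same reason no library could be left out of a group. In the order of D2 vs D0, then D4 vs D2, then D8 vs D4, then D4 vs D0 and last D8 vs D0, the log2 ratio of LOC106509199 was 0.61, −0.20, 0.21, 0.41 and 0.62 with the median of ratios over mRNAs. It was 0.68, −0.18, −0.0486, 0.50 and 0.45 with the sum of mRNA FPKM, and 0.67, −0.38, 0.10, 0.29 and 0.39 with the reference genes. The log2 ratio of LOC100513133 was 1.58, 0.12, −1.03, 1.70 and 0.67 with the median of ratios, and 1.64, −0.0532, −1.14, 1.59 and 0.45 with the reference genes. With the sum of mRNA FPKM it was 1.65, 0.14, −1.29 and 1.80 in the first 4 comparisons. With a pseudocount of 1 it was 1.499 for D2 vs D0 and 1.71 for D4 vs D0. The median of ratios moved the ratio of every gene by 0.21 for D8 vs D4 and 0.16 for D8 vs D0, the reference genes moved it by −0.27 for D4 vs D2 and −0.17 for D4 vs D0, and the mRNA sum by 0.11 for D2 vs D0. The number of features at least 2-fold apart was 1764, 598, 1505, 2008 and 863, and without a filter on low values 8334, 6140, 7908, 8939 and 6885. It was 366 in D4 vs D2 with at least 1 FPKM in all 4 libraries. With a pseudocount of 1 it was 334, 855 and 548 in D4 vs D2, D8 vs D4 and D8 vs D0. Members past 2-fold went, without a filter, from 5 to 8 in the paraspeckle list and from 0 to 1 in the RNase P and RNase MRP list, the 1 being RPP14 at 10 reads or fewer, and from 5 to 1 in the RNA polymerase III list with the median of ratios. The counting intervals of the 2 lncRNAs were narrower than the shifts by scaling listed above, of at least 0.11 in size. They were not narrower than every smaller shift. For LOC100513133 in D8 vs D0, the half-width of 0.037 exceeded the shift of −0.009 with the mRNA sum. With 1 library per stage these data do not show the variation between animals and cultures. The causes of these shifts were not tested.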

Other observations

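By mean FPKM, the annotated lncRNAs after LOC106509199 were LOC100621455, LOC100525935, SEM1 and EIF4B, of which the last pair carry the names of protein-coding genes. The lncRNAs named EIF4B and SEM1 had 200, 235, 278 and 228 FPKM and 444, 382, 294 and 348 FPKM at D0, D2, D4 and D8. LOC100525935 had 362, 559, 512 and 632 FPKM, lowest at D0 as LOC106509199 was. The reference genes differed among themselves, with RPLP0 at 2346, 3606, 3741 and 3201 FPKM, PPIA at 944, 679, 699 and 802 FPKM, and HPRT1 at 7.23, 5.32, 8.68 and 7.23 FPKM. RPLP0 was lowest at D0, where PPIA was highest.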
